A study of Beta vulgaris with 12 samples.

Results

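Roots of sugar beet seedlings under salt stress were compared with control roots on day 1, and the comparison is described for the genes that were both annotated and expressed. A gene was included when the deposited table gives it a description and its mean in either group was at least 1 FPKM (fragments per kilobase of transcript and per unit of mapped reads, a level corrected for length and depth). Of the 28320 genes in the table, 21848 were annotated and 14597 met both conditions. Since FPKM values are divided by transcript length, levels of different genes can be set side by side.

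The group CK_1 held control roots and the group S_1 held salt-treated roots, with 3 biological replicates of each among the 12 libraries of the series. All were fresh roots of KWS0143 seedlings, grown on vermiculite and then in an aerated, diluted Hoagland solution in a growth chamber. CK_1 received the nutrient solution alone, and S_1 received the same solution with NaCl and Na2SO4 at 300 mM Na+. S_1 is described as roots on day 1 of treatment at this sodium level, which was reached in steps, and the methods do not say whether the day was counted from the first or the last step.

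A saline solution holds back water from the root and brings sodium and chloride into it. Roots are known to answer with abscisic acid, with compatible solutes such as glycine betaine, which beets make from choline, and with ion transport into the vacuole. The endodermis and the outer layers can also be sealed with lignin, in the Casparian strip, and with suberin, a polyester of long fatty acids, glycerol and ferulate.

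Between 23698 and 24212 genes were above 0 FPKM in a library, and the 10 highest genes took 5.20% to 10.1% of the summed FPKM. Pairs of libraries correlated on the log2 scale at 0.810 to 0.871 within a group and at 0.765 to 0.811 between CK_1 and S_1, across genes, which are no replicates. Genes that mark shoots were low: the summed FPKM of 41 photosynthesis genes was 105 to 260 in CK_1 and 108 to 550 in S_1. The sum of 550 was that of S_1 replicate 1, and the sums of the other salt libraries lay within the range of the controls. Root markers were present, and the summed FPKM of 67 genes of root transport and Casparian strip families was 1806 to 3887 in CK_1 and 1678 to 2179 in S_1.

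The groups were compared with limma on log2(FPKM + 1) values of 27073 genes. A gene is called upregulated or downregulated below when its log2 fold change passed 1 or -1 with a P, before adjustment, under 0.05, and the call is lost when either condition no longer holds. Of the 14597 genes, 748 were upregulated (5.12%) and 464 downregulated (3.18%), and these shares are the background for the gene lists below. Over all genes tested, the shares were 3.44% and 2.55%. With Benjamini-Hochberg adjustment over all genes tested, 91 of the upregulated and 62 of the downregulated genes had an adjusted p under 0.05 (0.623% and 0.425% of the 14597, together 1.05%, against 0.772% in either direction over all genes tested). The median log2 fold change was 1.55 among the upregulated genes, -1.41 among the downregulated genes and 0.0083 over all 14597. In 714 of the upregulated genes the 3 salt libraries all lay above the 3 control libraries, and in 439 of the downregulated genes they all lay below. Such separation was found in 13.4% of the 14597 genes upward and in 12.5% downward. S_1 replicate 3 was the highest of the 3 salt libraries in 364 of the upregulated genes, replicate 2 in 210 and replicate 1 in 174. The highest library counted for the lists below is likewise the highest of the 3 salt libraries.

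The 57 lists of pathways and gene families held 3343 of the 14597 genes and 472 of those called, and 6 further lists were added after values had been seen. Where leaving out 1 library moved the count of a list by over 1.5 times and by 2 genes or more, the count without that library is given beside the list. The plot of the shares called in each list shows the methyl cycle, the lipid-transfer proteins, the late embryogenesis abundant (LEA) proteins, glycolysis and the suberin genes at the upregulated end. Glutamate receptor-like channels and cytokinin genes stand at the other end. The methyl cycle and the glutamate receptor-like channels are among the 6 lists added after values had been seen. Lists of housekeeping functions lay near or under the background, with 3 upregulated and 1 downregulated of 143 cytosolic ribosomal protein genes, and 6 and 3 of 138 genes for histones, cyclins and DNA replication. The upregulated genes of the latter list numbered 1 without CK_1 replicate 3 and 2 without CK_1 replicate 1 or S_1 replicate 3 and 15 without CK_1 replicate 2, and the downregulated ones 1 without CK_1 replicate 2.

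**Figure D1:**
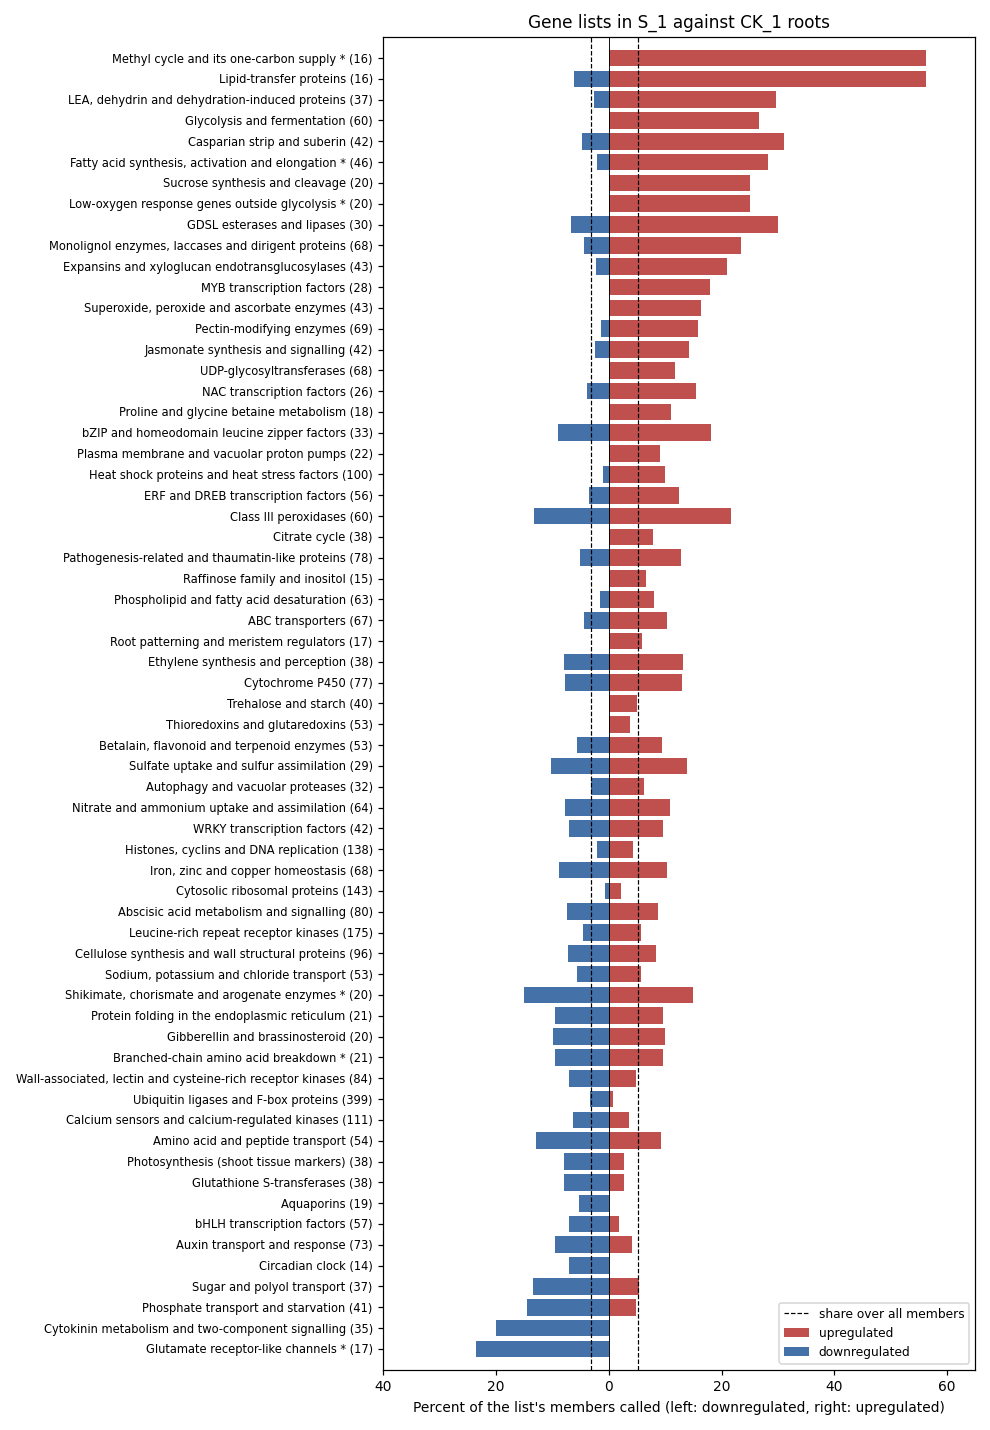
Percent of the genes of each list that were upregulated (right, red) or downregulated (left, blue) in S_1 against CK_1, with the number of genes in brackets, an asterisk for lists added after values had been seen, and dashed lines at the shares over all 14597 genes. The methyl cycle, a list added after values had been seen, and the lipid-transfer proteins reach 56.2% upregulated, against a background of 5.12%. The glutamate receptor-like channels, also added later, reach 23.5% downregulated, against 3.18%.

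Genes for making, exporting and regulating suberin and wax were among the upregulated genes of highest fold change. In the list of Casparian strip and suberin genes, 13 of 42 were upregulated and 2 downregulated (31.0% and 4.76%, median log2 fold change 0.30), 6 of the 13 at an adjusted p under 0.05. In the list of fatty acid synthesis, activation and elongation, which was added after values had been seen, 13 of 46 were upregulated and 1 downregulated (median 0.50). S_1 replicate 3 was the highest library for 10 of the 13 suberin genes, and without it 13 were upregulated. In whole roots, a change in the number of endodermal or other barrier cells and a change in RNA per cell cannot be told apart.

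The first step of fatty acid elongation is catalysed by 3-ketoacyl-CoA synthases (KCS). KCS1 (LOC104904140) had 1.54, 1.998 and 2.05 FPKM in CK_1 and 16.2, 11.4 and 21.003 FPKM in S_1 (log2 fold change 2.55, SE 0.26, adjusted p = 0.0349). KCS10 (LOC104905974) had 0.518, 1.004 and 0.789 FPKM in CK_1 and 11.7, 8.39 and 20.9 FPKM in S_1 (log2 fold change 2.97, SE 0.36, adjusted p = 0.0439). The lowest salt library of either gene was over 5 times as high as its highest control library. The next steps were upregulated by less. The 3-hydroxyacyl-CoA dehydratase gene PASTICCINO 2 (LOC104895506) had 4.91, 7.89 and 5.801 FPKM in CK_1 and 23.8, 22.9 and 48.7 FPKM in S_1 (log2 fold change 2.12, SE 0.34, adjusted p = 0.0684). The enoyl-CoA reductase gene (LOC104904012), which ends each elongation cycle, had 9.896, 15.3 and 10.6 FPKM in CK_1 and 22.7, 24.98 and 32.2 FPKM in S_1 (log2 fold change 1.1), and its call was lost without CK_1 replicate 1 (log2 fold change 0.99) or S_1 replicate 3 (0.96). Members of the same families differed: a further synthase gene, KCS11 (LOC104902115), had 61.8, 19.3 and 82.3 FPKM in CK_1 and 8.404, 19.4 and 19.2 FPKM in S_1. Its groups overlapped, and its call of downregulation (log2 fold change -1.6) was lost without CK_1 replicate 1 (log2 fold change -1.39), CK_1 replicate 3 (-1.19), S_1 replicate 1 (-1.23), S_1 replicate 2 (-1.78) or S_1 replicate 3 (-1.78), and under median ratio scaling.

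Fatty acids are then activated, hydroxylated, joined to glycerol or reduced to alcohols. Long-chain acyl-CoA synthetase 4 (LACS4) is encoded by more than 1 gene in the table. One of them (LOC104884969) had 2.22, 2.85 and 2.54 FPKM in CK_1 and 43.1, 37.2 and 102 FPKM in S_1 (log2 fold change 3.98, SE 0.40, adjusted p = 0.0318). The other (LOC104892156), which was far more abundant in controls, had 183, 197 and 185 FPKM in CK_1 and 99.4, 96.3 and 103 FPKM in S_1 and did not reach the fold change criterion (log2 fold change -0.91). CYP86B1 (LOC104902574), whose Arabidopsis counterpart hydroxylates the end of very long fatty acids for suberin, had 0.548, 0.679 and 0.558 FPKM in CK_1 and 11.6, 8.99 and 22.01 FPKM in S_1 (log2 fold change 3.16, SE 0.35, adjusted p = 0.0383). GPAT8 (LOC104887286), of a family that transfers acyl groups to glycerol, had 6.28, 5.73 and 6.302 FPKM in CK_1 and 28.1, 51.1 and 65.2 FPKM in S_1 (log2 fold change 2.71, SE 0.32, adjusted p = 0.04095). In both genes the controls were close together, within a range of 0.548 to 0.679 FPKM for CYP86B1 and 5.73 to 6.30 for GPAT8. A pair of fatty acyl-CoA reductase genes, which make fatty alcohols, had log2 fold changes of 2.65 (LOC104901603, adjusted p = 0.03703) and 2.35 (LOC104900337, adjusted p = 0.0234). The omega-hydroxypalmitate O-feruloyl transferase gene (LOC104895231), which attaches ferulate to suberin monomers, had 3.15, 9.42 and 2.11 FPKM in CK_1 and 46.6, 17.1 and 115 FPKM in S_1 (log2 fold change 3.18, SE 0.78, adjusted p = 0.141). Its salt libraries spread widely, from 17.1 to 115, although the groups did not overlap.

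Genes for export and assembly were upregulated too. ABCG6 (LOC104886919), a transporter of suberin parts in Arabidopsis, had 1.098, 1.03 and 1.02 FPKM in CK_1 and 20.9, 19.6 and 67.3 FPKM in S_1 (log2 fold change 3.93, SE 0.49, adjusted p = 0.0443). Lipid-transfer proteins carry fatty acids and wax through the wall, and 9 of 16 were upregulated and 1 downregulated (56.2% and 6.25%, median log2 fold change 1.56). The largest change among them was in LOC104894518, with 0.239, 0.546 and 0.768 FPKM in CK_1 and 21.6, 13.4 and 32.5 FPKM in S_1 (log2 fold change 3.88, SE 0.36, adjusted p = 0.0253). Its neighbour LOC104894519 on chromosome 5 of the EL10.2 assembly was also upregulated (log2 fold change 2.09). The lipid-transfer protein genes LOC104904284 and LOC104908115, with 1.99, 7.45 and 3.25 and 16.4, 17.04 and 11.6 FPKM in CK_1, reached 44.99, 34.1 and 92.96 and 73.9, 68.3 and 177 in S_1. GDSL esterases, several of which join or break suberin in Arabidopsis, had 9 of 30 upregulated and 2 downregulated (median 0.29). The gene for the At1g74460 type (LOC104894041) had 1.45, 2.25 and 2.05 FPKM in CK_1 and 28.8, 25.7 and 83.8 FPKM in S_1 (log2 fold change 3.81, SE 0.47, adjusted p = 0.0443). The gene for the At1g28610 type (LOC104909076) had 9.21, 12.1 and 10.21 FPKM in CK_1 and 68.3, 52.9 and 61.1 FPKM in S_1, within narrow groups (log2 fold change 2.43, SE 0.17, adjusted p = 0.0147). The At2g23540 type (LOC104895639) and the At5g22810 type (LOC104903605) had log2 fold changes of 3.77 and 3.81. HOTHEAD (LOC104899821), an oxidoreductase that Arabidopsis needs for its cuticle, had 0.214, 0.917 and 0.403 FPKM in CK_1 and 7.17, 5.08 and 19.2 FPKM in S_1 (log2 fold change 2.75, SE 0.50, adjusted p = 0.0838).

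The transcription factor MYB39 (SUBERMAN) switches on suberin genes in Arabidopsis, and the table holds more than 1 gene of that name. One (LOC104887993) had 0.5598, 2.18 and 0.687 FPKM in CK_1 and 9.003, 12.9 and 13.1 FPKM in S_1 (log2 fold change 2.62, SE 0.35, adjusted p = 0.0481), and the other (LOC104900532) had 0.6998, 1.26 and 0.498 FPKM in CK_1 and 6.74, 7.503 and 15.5 FPKM in S_1 (log2 fold change 2.52, SE 0.37, adjusted p = 0.0592). The MYB list as a whole had 5 upregulated and 0 downregulated of 28 genes, and S_1 replicate 3 was the highest library in all 5. Scaffold proteins of the Casparian strip did not move together. CASP2 (LOC104898307) had 1.98, 4.17 and 1.09 FPKM in CK_1 and 23.5, 26.3 and 2.78 FPKM in S_1, so that S_1 replicate 3 lay among the controls, and its call was lost without CK_1 replicate 1 (log2 fold change 2.05), CK_1 replicate 2 (2.45), CK_1 replicate 3 (1.8), S_1 replicate 1 (1.67) or S_1 replicate 2 (1.6). The summed FPKM of 24 Casparian strip and CASP-like genes was 318 to 450 in CK_1 and 378 to 462 in S_1, which overlap. CASP-like protein 4B3 (LOC104898241) was downregulated, with 6.08, 10.9 and 4.82 FPKM in CK_1 and 1.62, 2.96 and 2.496 FPKM in S_1 (log2 fold change -1.25), and its call was lost without CK_1 replicate 2 (log2 fold change -0.96), and in the fit of all 12 libraries.

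Lignin genes were upregulated at several steps from cinnamate to the polymer. Of 68 genes for monolignol enzymes, laccases and dirigent proteins, 16 were upregulated and 3 downregulated (23.5% and 4.41%, median log2 fold change 0.32). The downregulated genes numbered 5 without CK_1 replicate 2 and 6 without S_1 replicate 2. Cinnamate 4-hydroxylase (C4H, LOC104900289), the first hydroxylation of the pathway, was already abundant, at 225, 187 and 254 FPKM in CK_1 and 548, 609.5 and 670.3 FPKM in S_1 (log2 fold change 1.46). Cinnamoyl-CoA reductase (CCR, LOC104904880), which commits the pathway to monolignols, had 120.4, 212 and 129 FPKM in CK_1 and 607, 441 and 716 FPKM in S_1 (log2 fold change 1.95, SE 0.35, adjusted p = 0.08298). CYP84A1 (LOC104895114), the ferulate 5-hydroxylase, which acts on the ring of the monolignols, had 6.22, 9.11 and 15.6 FPKM in CK_1 and 36.9, 48.1 and 159.7 FPKM in S_1 (log2 fold change 2.65). A rarer cinnamate 4-hydroxylase gene of the CYP73A100 type (LOC104886776) had 16.1, 12.6 and 0.619 FPKM in CK_1 and 45.2, 48.5 and 542 FPKM in S_1 (3.9), with its call lost without CK_1 replicate 3 (log2 fold change 2.82) or S_1 replicate 3 (2.73). The calls of 4-coumarate-CoA ligase 1, CYP98A2 and a cinnamyl alcohol dehydrogenase were near the fold criterion. The ligase (LOC104902419) had a log2 fold change of 1.05, and its call was lost without CK_1 replicate 1 (log2 fold change 0.95), CK_1 replicate 3 (1.04) or S_1 replicate 3 (0.76). CYP98A2 (LOC104889547), which hydroxylates coumaroyl esters, had 1.05, and its call was lost without CK_1 replicate 1 (log2 fold change 1.17), CK_1 replicate 2 (0.88), CK_1 replicate 3 (1.12), S_1 replicate 2 (1.14) or S_1 replicate 3 (0.68), and under median ratio scaling. The dehydrogenase (LOC104904943) had 1.07, and its call was lost without S_1 replicate 1 (log2 fold change 0.96) or S_1 replicate 3 (0.94). By contrast, a caffeoyl-CoA O-methyltransferase gene (LOC104883950) was downregulated, with 42.7, 36.8 and 27.6 FPKM in CK_1 and 6.18, 7.803 and 9.08 FPKM in S_1 (log2 fold change -2.07, SE 0.22, adjusted p = 0.03703).

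Laccases and class III peroxidases couple monolignols in the wall. Laccase-12 (LOC104905953) had 10.01, 5.82 and 11.4 FPKM in CK_1 and 132, 151 and 369 FPKM in S_1 (log2 fold change 4.33, SE 0.46, adjusted p = 0.0364), which is 24.03 times the control mean. Of 60 class III peroxidase genes, 13 were upregulated and 8 downregulated (21.7% and 13.3%), 5 and 4 of them at an adjusted p under 0.05, and S_1 replicate 3 was the highest library in 10 of the 13. Peroxidase 4 (LOC104908318) had 2.81, 13.8 and 10.3 FPKM in CK_1 and 305, 283 and 1176 FPKM in S_1 (log2 fold change 5.76, SE 0.75, adjusted p = 0.0466). Peroxidase 11 (LOC104896291) had 1.37, 2.78 and 2.41 FPKM in CK_1 and 39.7, 36.5 and 132 FPKM in S_1 (log2 fold change 4.23), and peroxidase 20 (LOC104892966) had 0.413, 1.47 and 0.479 FPKM in CK_1 and 21.6, 14.3 and 56.04 FPKM in S_1 (3.97). A cationic peroxidase gene (LOC104900272), which is 1 of 3 upregulated neighbours on chromosome 7 of EL10.2, had 0.825, 1.34 and 1.74 FPKM in CK_1 and 23.6, 26.8 and 40.4 FPKM in S_1 (log2 fold change 3.75, SE 0.27, adjusted p = 0.0147). Peroxidase 72 (LOC104895081), a lignin peroxidase in Arabidopsis, had 7.02, 9.52 and 4.04 FPKM in CK_1 and 31.8, 46.1 and 213 FPKM in S_1 (3.2). Other members were lower in the salt-treated roots. Peroxidase 57 (LOC104900298) had 42.8, 19.7 and 23.6 FPKM in CK_1 and 0.578, 2.89 and 0.895 FPKM in S_1 (log2 fold change -3.63, SE 0.45, adjusted p = 0.0443). Peroxidase P7 (LOC104898204) had 189, 189 and 162 FPKM in CK_1 and 28.01, 46.4 and 21.3 FPKM in S_1 (log2 fold change -2.53, SE 0.30, adjusted p = 0.0425), and lies next to an upregulated peroxidase gene on that chromosome.

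**Figure D2:**
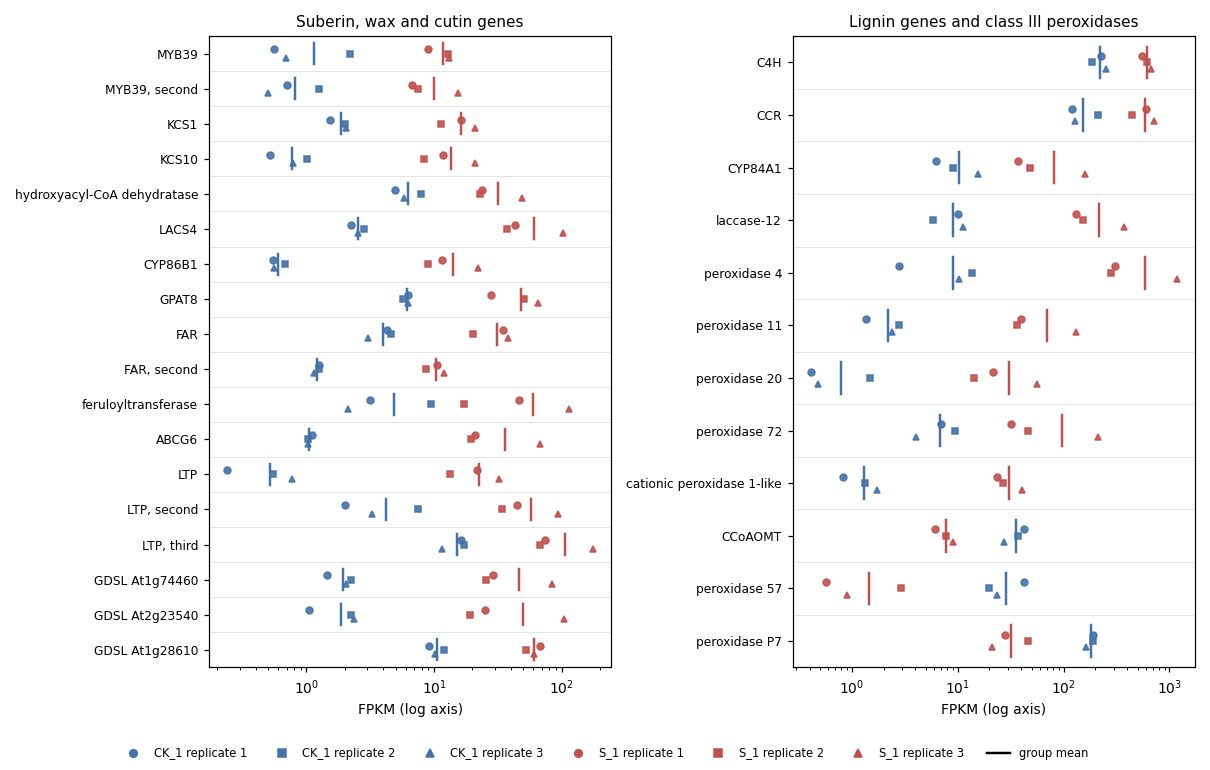
FPKM (log axis) of suberin, wax and cutin genes (left) and of lignin genes and class III peroxidases (right) in each CK_1 library (blue) and S_1 library (red), with vertical lines at the group means. All red points lie right of the blue points except in the 3 genes at the foot of the right panel, CCoAOMT, peroxidase 57 and peroxidase P7, where they lie left of them.

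Genes for proteins that protect dehydrating cells held some of the largest increases. Of 37 genes for LEA, dehydrin and dehydration-induced proteins, 11 were upregulated and 1 downregulated (29.7% and 2.70%, median log2 fold change 0.31). LEA46 (LOC104889201) had 10.4, 5.06 and 12.3 FPKM in CK_1 and 576, 311 and 746 FPKM in S_1 (log2 fold change 5.72, SE 0.44, adjusted p = 0.0165), and LEA Dc3 (LOC104904610) had 24.04, 9.16 and 18.5 FPKM in CK_1 and 1308, 472 and 1133 FPKM in S_1 (log2 fold change 5.7, SE 0.52, adjusted p = 0.0253). LEA31 (LOC104894509) was close to 0 in controls, with 0.142, 0.2402 and 0.122 FPKM in CK_1 and 9.86, 7.27 and 15.5 FPKM in S_1 (log2 fold change 3.29, SE 0.32, adjusted p = 0.0284). Cold and drought-regulated CORA proteins, which are glycine-rich, were among the most abundant transcripts of the salt-treated roots. The row that joins LOC104897765 and LOC104897764 had 574, 649.6 and 576 FPKM in CK_1 and 2241, 2336 and 3977 FPKM in S_1 (log2 fold change 2.2), and the CORA-like gene LOC104897762 had 16.6, 144 and 74.2 FPKM in CK_1 and 1778, 993 and 1922 FPKM in S_1 (4.71). The lowest salt value of the latter was nearly 7 times its highest control value. A further CORA-like gene (LOC104897766) had 305, 637 and 448 FPKM in CK_1 and 1042, 1684 and 3371 FPKM in S_1 (2.03), and its call was lost without CK_1 replicate 1 (log2 fold change 1.76) or CK_1 replicate 3 (2.03). S_1 replicate 3 was the highest library in 6 of the 11 upregulated genes, and 12 were upregulated without it.

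Among 100 genes for heat shock proteins and heat stress factors, which fold or refold proteins, 10 were upregulated and 1 downregulated. A class I small heat shock protein gene (LOC104905072) had 10.8, 10.5 and 27.02 FPKM in CK_1 and 104, 47.4 and 181 FPKM in S_1 (log2 fold change 2.64, SE 0.59, adjusted p = 0.122), and its call was lost in the fit of all 12 libraries. The number upregulated in this list was 6 without S_1 replicate 1 or S_1 replicate 3, and the number downregulated 3 without CK_1 replicate 2. Of 21 genes for protein folding in the endoplasmic reticulum, 2 were upregulated and 2 downregulated, the former numbering 6 without CK_1 replicate 2 or S_1 replicate 3. The upregulated side held an endoplasmin gene (LOC104905131, log2 fold change 1.57). The protein disulfide isomerase genes, which form disulfide bonds, were the downregulated ones. Isomerase-like 1-3 (LOC104906982) had 57.95, 58.9 and 38.7 FPKM in CK_1 and 5.604, 21.1 and 5.14 FPKM in S_1 (-2.43), and isomerase-like 1-1 (LOC104890536) had a log2 fold change of -1.06, with its call lost without CK_1 replicate 1 (log2 fold change -0.84) or S_1 replicate 3 (-0.93).

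Enzymes that supply and recycle methyl groups were upregulated at the 6 steps described here, although the call at the S-adenosylmethionine step was lost in several fits. In the list of the methyl cycle and its one-carbon supply, added after values had been seen, 9 of 16 genes were upregulated and 0 downregulated (56.2%, median log2 fold change 1.12), 2 of them at an adjusted p under 0.05. With any 1 library left out, 7 to 11 were upregulated. Serine hydroxymethyltransferase 4 (LOC104889778), which takes the one-carbon unit from serine, had 21.1, 58.8 and 28.7 FPKM in CK_1 and 168, 230.0 and 265 FPKM in S_1 (log2 fold change 2.68, SE 0.41, adjusted p = 0.0625). Methylenetetrahydrofolate reductase 1 (LOC104889100), which reduces that unit to a methyl group, had 31.5, 39.2 and 24.05 FPKM in CK_1 and 87.9, 105 and 119 FPKM in S_1 (log2 fold change 1.7, SE 0.23, adjusted p = 0.0488). Methionine synthase (LOC104893405) had 151, 151 and 94.8 FPKM in CK_1 and 406, 812 and 539.5 FPKM in S_1 (log2 fold change 2.11, SE 0.37, adjusted p = 0.0785). S-adenosylmethionine synthase 2 (LOC104894834), which makes the methyl donor, had 70.2, 1.37 and 75.5 FPKM in CK_1 and 225, 293 and 442 FPKM in S_1 (log2 fold change 3.72, SE 1.4, adjusted p = 0.286). The value of 1.37 FPKM in CK_1 replicate 2 widened its SE, and the call was lost without S_1 replicate 1 (log2 fold change 3.94), S_1 replicate 2 (3.75) or S_1 replicate 3 (3.46), and in the fit of all 12 libraries. Without CK_1 replicate 2 the gene was called with a log2 fold change of 2.06. Adenosylhomocysteinase (LOC104889777) clears the product of methyl transfer and was the most abundant gene of the list, with 299, 524 and 245 FPKM in CK_1 and 1022, 1654 and 1211 FPKM in S_1 (log2 fold change 1.91, SE 0.48, adjusted p = 0.147). Adenosine kinase 2 (LOC104893663), which removes the adenosine so formed, had 26.03, 38.3 and 19.4 FPKM in CK_1 and 109, 186 and 137 FPKM in S_1 (log2 fold change 2.34, SE 0.32, adjusted p = 0.0491). A further methionine synthase gene (LOC104899904) and the H protein of glycine cleavage (LOC104905967), which yields one-carbon units in mitochondria, had smaller increases. The synthase (log2 fold change 1.07) lost its call without CK_1 replicate 1 (log2 fold change 0.99), CK_1 replicate 3 (0.99) or S_1 replicate 3 (0.87), and the H protein (1.17) lost it without S_1 replicate 2 (log2 fold change 0.98). The mitochondrial serine hydroxymethyltransferase gene (LOC104897800) was lower instead, with 14.97, 18.9 and 8.87 FPKM in CK_1 and 7.06, 6.69 and 5.94 FPKM in S_1, and did not meet the criteria (log2 fold change -0.96).

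Glycine betaine is made from choline by choline monooxygenase and betaine aldehyde dehydrogenase. Choline monooxygenase (LOC104897072) was upregulated, with 84.4, 104 and 84.4 FPKM in CK_1 and 509, 461 and 407 FPKM in S_1 (log2 fold change 2.32, SE 0.22, adjusted p = 0.0271), or 5.04 times the control mean. The betaine aldehyde dehydrogenase-like gene LOC104908697 had 7.27, 10.6 and 4.27 FPKM in CK_1 and 16.2, 13.5 and 11.8 FPKM in S_1 and did not meet the criteria (log2 fold change 0.88). Phosphoethanolamine N-methyltransferase, which spends methyl groups on choline, was read from a pair of genes. Their values overlapped between the groups, with 32.7, 48.6 and 18.6 FPKM in CK_1 and 70.5, 37.1 and 36.1 FPKM in S_1 for LOC104893012 and 9.63, 38.3 and 4.54 FPKM in CK_1 and 108, 33.6 and 36.8 FPKM in S_1 for LOC104900778. The first steps of proline and raffinose synthesis did not reach the fold change criterion. The proline synthesis gene P5CS (LOC104904817) had 32.7, 44.1 and 34.1 FPKM in CK_1 and 63.8, 63.02 and 69.6 FPKM in S_1, with separate groups and a log2 fold change of 0.82 (SE 0.17). Galactinol synthase 1 (LOC104894821), which starts the raffinose family, had 25.7, 42.01 and 28.1 FPKM in CK_1 and 53.8, 57.8 and 71.7 FPKM in S_1 (0.93), while galactinol synthase 2 (LOC104890674) had overlapping groups (0.23). In the list of proline and glycine betaine metabolism, 2 of 18 genes were upregulated and 0 downregulated, the former numbering 4 without CK_1 replicate 2.

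Genes of glycolysis and fermentation were called in the upward direction. Of 60 genes, 16 were upregulated and 0 downregulated (26.7%, median log2 fold change 0.58), 2 at an adjusted p under 0.05. S_1 replicate 3 was the highest library in 12 of the 16, and without it 13 were upregulated. Without CK_1 replicate 3 the number was 11, and it was 11 to 19 over all libraries left out in turn. The downregulated genes numbered 2 without CK_1 replicate 3. Cytosolic glyceraldehyde-3-phosphate dehydrogenase (LOC104897637) had 22.2, 24.4 and 20.7 FPKM in CK_1 and 86.3, 119.7 and 158 FPKM in S_1 (log2 fold change 2.34, SE 0.25, adjusted p = 0.0364). Aldolase (LOC104898474), triosephosphate isomerase (LOC104904128) and enolase (LOC104898495), enzymes of the same stretch of the pathway, had log2 fold changes of 1.28, 1.48 and 1.18, and the call of enolase was lost without CK_1 replicate 3 (log2 fold change 0.99). A further glyceraldehyde-3-phosphate dehydrogenase gene (LOC104893518) had 298, 450.3 and 193 FPKM in CK_1 and 764, 764 and 601 FPKM in S_1 (1.25), and its call was lost without CK_1 replicate 1 (log2 fold change 1.25), CK_1 replicate 3 (0.94), S_1 replicate 1 (1.19) or S_1 replicate 2 (1.19). The ethanol branch held larger changes. Alcohol dehydrogenase 3 (LOC104895143) had 25.4, 24.7 and 78.2 FPKM in CK_1 and 213, 395 and 849 FPKM in S_1 (log2 fold change 3.46, SE 0.67, adjusted p = 0.0937), and alcohol dehydrogenase 2 (LOC104895152), a near neighbour on chromosome 1 of EL10.2, had 1.2003, 1.595 and 3.399 FPKM in CK_1 and 9.57, 32.4 and 226 FPKM in S_1 (log2 fold change 3.88, SE 1.11, adjusted p = 0.184). Reads of such similar genes may have been shared between them. Pyruvate decarboxylase 2 (LOC104892526), which feeds this branch, had 8.83, 7.51 and 11.5 FPKM in CK_1 and 50.6, 64.6 and 206 FPKM in S_1 (log2 fold change 3.13, SE 0.54, adjusted p = 0.0774). In each of these 3 genes the 3 salt libraries lay above the controls but spread widely, with S_1 replicate 3 at the top. Pyruvate decarboxylase 1 (LOC104900580) had 21.1, 36.6 and 22.2 FPKM in CK_1 and 41.5, 85.8 and 237 FPKM in S_1 (1.84), and its call was lost without CK_1 replicate 1 (log2 fold change 1.7), CK_1 replicate 3 (1.73) or S_1 replicate 2 (1.91). Without S_1 replicate 3 it was called with a log2 fold change of 1.18.

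Genes known to be induced by low oxygen outside glycolysis were read as a further list, added after values had been seen, in which 5 of 20 were upregulated and 0 downregulated (median log2 fold change 0.86). All 5 were highest in S_1 replicate 3, 5 were upregulated without that library, and 8 without S_1 replicate 1. LBD41 (LOC104906092), a core low-oxygen gene of Arabidopsis, had 1.74, 5.45 and 15.8 FPKM in CK_1 and 61.8, 40.1 and 218 FPKM in S_1 (log2 fold change 3.63, SE 0.87, adjusted p = 0.135). An early nodulin-93 gene (LOC104902084) had 0.13996, 0.137 and 0.769 FPKM in CK_1 and 12.7, 18.7 and 127 FPKM in S_1 (log2 fold change 4.63, SE 0.86, adjusted p = 0.0862), and an early nodulin-93-like gene (LOC104902086) had 0.0656, 0.1701 and 0.205 FPKM in CK_1 and 6.13, 9.23 and 67.9 FPKM in S_1 (log2 fold change 3.9, SE 0.86, adjusted p = 0.1199). The hemoglobin 1-like gene (LOC104904413), whose product binds oxygen and nitric oxide, had 3.705, 3.57 and 10.9 FPKM in CK_1 and 13.1, 27.2 and 87.3 FPKM in S_1 (log2 fold change 2.36, SE 0.75, adjusted p = 0.222), and its call was lost without CK_1 replicate 1 (log2 fold change 2.15) or CK_1 replicate 2 (2.13). The plant cysteine oxidase genes PCO1 and PCO2, whose products sense oxygen, had their highest value by far in S_1 replicate 3. PCO1 (LOC104893391) had 8.61, 15.1 and 13.4 FPKM in CK_1 and 16.5, 25.3 and 98.1 FPKM in S_1 and PCO2 (LOC104906288) had 7.48, 15.5 and 12.4 FPKM in CK_1 and 19.6, 10.6 and 103 FPKM in S_1, and neither met the criteria (adjusted p = 0.365 and 0.541). Nitrate reductase (LOC104887841) had the same shape, with 7.01, 7.198 and 4.48 FPKM in CK_1 and 9.66, 11.1 and 64.3 FPKM in S_1 (log2 fold change 1.51, adjusted p = 0.386). Why S_1 replicate 3 stood apart in these genes was not tested.

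**Figure D3:**
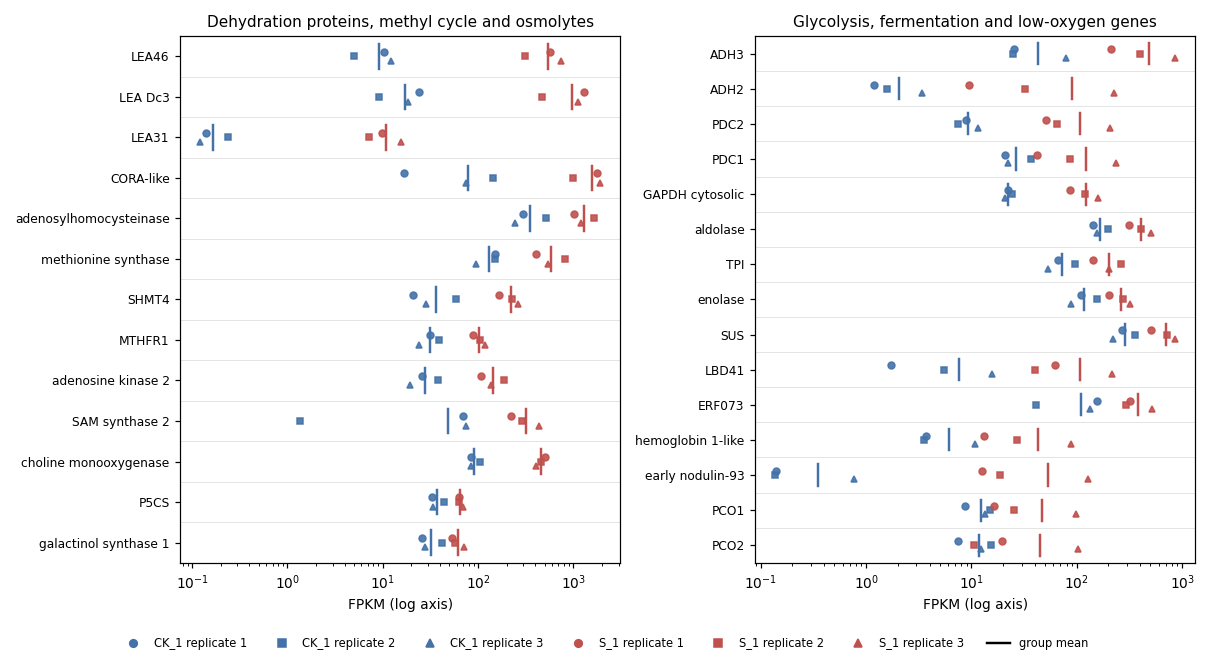
FPKM (log axis) of dehydration proteins, methyl cycle and osmolyte genes (left) and of glycolysis, fermentation and low-oxygen genes (right) in each CK_1 library (blue) and S_1 library (red), with vertical lines at the group means. The left panel shows S_1 replicate 3 (triangle) within or near the other salt libraries, and the right panel shows it to the right of them in all genes but TPI, as for ADH2 (226 FPKM against 9.57 and 32.4) and PCO2 (103 FPKM against 19.6 and 10.6).

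Among sugar genes, single enzymes of starch breakdown and of sucrose synthesis and cleavage were upregulated. Beta-amylase 1 (LOC104884072), which breaks starch down, had 2.23, 2.96 and 3.03 FPKM in CK_1 and 32.2, 26.8 and 25.5 FPKM in S_1, with narrow groups (log2 fold change 2.96, SE 0.18, adjusted p = 0.00896). The list of trehalose and starch genes that holds it had 2 of 40 upregulated and 0 downregulated (5%, at the background share of 5.12%, median log2 fold change -0.01), the upregulated ones numbering 4 without CK_1 replicate 2. Of 20 genes for sucrose synthesis and cleavage, 5 were upregulated and 0 downregulated, although the median of the list was -0.10. Sucrose-phosphate synthase (LOC104909043) had 1.55, 2.47 and 1.49 FPKM in CK_1 and 9.13, 7.05 and 8.03 FPKM in S_1 (log2 fold change 1.69, SE 0.23, adjusted p = 0.0508). Sucrose synthase (LOC104901675), which cleaves sucrose, had 269.7, 361 and 221 FPKM in CK_1 and 506, 726 and 859 FPKM in S_1 (log2 fold change 1.29), and its call was lost without CK_1 replicate 3 (log2 fold change 1.12). The upregulated genes of this list numbered 3 without CK_1 replicate 3. Of 37 sugar and polyol transporters, 2 were upregulated and 5 downregulated (5.41% and 13.5%), the former numbering 4 without S_1 replicate 3 and the latter 3 without CK_1 replicate 2. SWEET7 (LOC104908211), a sugar transporter of the plasma membrane, had 334, 279.7 and 254 FPKM in CK_1 and 45.2, 42.9 and 50.2 FPKM in S_1 (log2 fold change -2.62, SE 0.18, adjusted p = 0.0147), with group means 6.28 times apart. SWEET1 (LOC104895111) was upregulated instead, with 7.15, 13.4 and 16.96 FPKM in CK_1 and 63.7, 25.4 and 50.3 FPKM in S_1 (1.79). Glutamate decarboxylase (LOC104901386), which makes the amino acid GABA, had 38.7, 11.6 and 37.9 FPKM in CK_1 and 82.98, 55.5 and 72.9 FPKM in S_1 (1.39), with its call lost without CK_1 replicate 2 (log2 fold change 0.85), S_1 replicate 1 (1.26) or S_1 replicate 3 (1.36), and under median ratio scaling.

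Wall-loosening genes were upregulated as well. Of 43 expansins and xyloglucan endotransglucosylases, 9 were upregulated and 1 downregulated (20.9% and 2.33%, median log2 fold change 0.37), and of 69 pectin-modifying genes 11 were upregulated and 1 downregulated. The downregulated genes numbered 3 without S_1 replicate 2 in the former list and 3 without CK_1 replicate 1 in the latter. Expansin-like B1 is encoded by several genes, of which LOC104892825 had 29.8, 15.1 and 33.2 FPKM in CK_1 and 192, 263 and 179 FPKM in S_1 (log2 fold change 3.02, SE 0.34, adjusted p = 0.0383). Its neighbour LOC104892824 and a further copy, LOC104908292, had log2 fold changes of 2.6 and 3.5. XTH24 (LOC104889736), which cuts and rejoins xyloglucan, had 17.4, 7.199 and 5.402 FPKM in CK_1 and 65.2, 157 and 107 FPKM in S_1 (log2 fold change 3.4, SE 0.50, adjusted p = 0.0582). Its neighbour LOC104889734 had 27.4, 30.7 and 82.8 FPKM in CK_1 and 502, 212 and 80.9 FPKM in S_1, with overlapping groups, and its call was lost without CK_1 replicate 1 (log2 fold change 2.0), CK_1 replicate 2 (2.08), S_1 replicate 1 (1.64) or S_1 replicate 2 (2.26). A further xyloglucan endotransglucosylase gene (LOC104892471) had 153, 74.8 and 176 FPKM in CK_1 and 784, 239 and 551 FPKM in S_1 (log2 fold change 1.89). The glucan endo-1,3-beta-glucosidase 13 gene (LOC104891728), of a family that digests callose, had 3.23, 5.31 and 5.73 FPKM in CK_1 and 60.2, 59.6 and 151 FPKM in S_1 (log2 fold change 3.87, SE 0.42, adjusted p = 0.0376). All 3 salt libraries of this gene were at least 10 times its highest control.

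Abscisic acid (ABA) genes changed in both directions. Of 80 genes of ABA metabolism and signalling, 7 were upregulated and 6 downregulated (8.75% and 7.5%, median log2 fold change 0.02). The downregulated genes numbered 3 without CK_1 replicate 2. Synthesis steps were among the upregulated genes. Zeaxanthin epoxidase (LOC104883753) had 2.91, 5.32 and 2.93 FPKM in CK_1 and 21.9, 15.8 and 28.99 FPKM in S_1 (log2 fold change 2.3, SE 0.30, adjusted p = 0.0474). NCED5 (LOC104883854), of the dioxygenases that limit ABA synthesis, was low but separate, with 0.262, 0.225 and 0.148 FPKM in CK_1 and 3.16, 2.27 and 1.72 FPKM in S_1 (log2 fold change 1.46, SE 0.22, adjusted p = 0.0591). Beta-carotene 3-hydroxylase (LOC104888376), which supplies the carotenoid substrate, had 12.4, 9.22 and 11.4 FPKM in CK_1 and 30.1, 26.2 and 49.4 FPKM in S_1 (log2 fold change 1.55). The ABA exporter ABCG25 (LOC104894164) had 6.86, 21.05 and 5.39 FPKM in CK_1 and 45.4, 40.2 and 28.7 FPKM in S_1 (1.89). Protein phosphatase 2C 56 (LOC104902294), a negative regulator of the pathway, had 15.4, 8.44 and 18.1 FPKM in CK_1 and 37.3, 34.9 and 30.4 FPKM in S_1 (1.29), and its call was lost without CK_1 replicate 2 (log2 fold change 0.99). The ABA-responsive factor gene ABI5-like 5 (LOC104899695) had 13.8, 26.2 and 10.7 FPKM in CK_1 and 37.97, 26.5 and 34.9 FPKM in S_1 (1.01), and its call was lost without CK_1 replicate 1 (log2 fold change 0.92), CK_1 replicate 3 (0.75), S_1 replicate 1 (0.91) or S_1 replicate 3 (0.97). On the downregulated side stood the receptor PYL9 (LOC104886203), with 20.03, 33.2 and 33.5 FPKM in CK_1 and 8.85, 3.498 and 6.02 FPKM in S_1 (log2 fold change -2.11, SE 0.36, adjusted p = 0.0739). An ABA 8'-hydroxylase gene (LOC104892458), which breaks the hormone down, had 338, 141 and 225 FPKM in CK_1 and 87.4, 96.2 and 133 FPKM in S_1 (-1.08), and its call was lost without CK_1 replicate 1 (log2 fold change -0.78), CK_1 replicate 3 (-1.07), S_1 replicate 1 (-0.96) or S_1 replicate 2 (-1.03), and under median ratio scaling and in the fit of all 12 libraries.

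Cytokinin genes were called in the downward direction. Of 35 genes of cytokinin metabolism and two-component signalling, 0 were upregulated and 7 downregulated (median log2 fold change -0.32), none of them at an adjusted p under 0.05. The number downregulated was 4 without CK_1 replicate 1, CK_1 replicate 2 or S_1 replicate 3, and the number upregulated was 1 without S_1 replicate 2 and 2 without CK_1 replicate 2. The response regulator ARR6 (LOC104885389), which cytokinin induces in Arabidopsis, had 18.9, 11.4 and 7.28 FPKM in CK_1 and 1.42, 1.75 and 1.57 FPKM in S_1 (log2 fold change -2.3, SE 0.35, adjusted p = 0.0618). ARR8 (LOC104889461) had 16.6, 35.01 and 13.1 FPKM in CK_1 and 9.04, 9.43 and 5.04 FPKM in S_1 (log2 fold change -1.27), and its call was lost without CK_1 replicate 2 (log2 fold change -0.88) or S_1 replicate 3 (-1.02). A cytokinin hydroxylase gene (LOC104888632), which makes trans-zeatin, had 84.4, 13.5 and 60.2 FPKM in CK_1 and 4.97, 10.7 and 3.07 FPKM in S_1 (log2 fold change -2.69, SE 0.76, adjusted p = 0.181).

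Auxin genes leaned the same way, with 3 upregulated and 7 downregulated of 73 (4.11% and 9.59%, median log2 fold change -0.19), the upregulated ones being 7 without S_1 replicate 2. The PIN-LIKES 1-like gene (LOC104895625), of a family that moves auxin within the cell, had 16.6, 41.5 and 16.9 FPKM in CK_1 and 2.12, 2.07 and 2.09 FPKM in S_1 (log2 fold change -2.94, SE 0.38, adjusted p = 0.0456). Auxin response factor 9 (LOC104908192) had narrow groups, with 87.5, 88.7 and 89.7 FPKM in CK_1 and 42.9, 37.2 and 33.7 FPKM in S_1 (log2 fold change -1.21, SE 0.15, adjusted p = 0.0439). Auxin-binding protein ABP19a genes, which encode germin-like wall proteins, were lower in several rows. The row that joins LOC104887790, LOC104887791, LOC104887792 and LOC104887793 had 198, 175 and 236 FPKM in CK_1 and 48.4, 82.6 and 66.02 FPKM in S_1 (log2 fold change -1.64), and LOC104887797 had 359.6, 147 and 123.3 FPKM in CK_1 and 17.9, 39.7 and 22.99 FPKM in S_1 (-2.83). In the ethylene list, 5 of 38 genes were upregulated and 3 downregulated, the latter numbering 1 without CK_1 replicate 1, CK_1 replicate 2 or S_1 replicate 3. The kinase CTR1 (LOC104888370), which holds ethylene signalling back, had 32.8, 25.9 and 21.6 FPKM in CK_1 and 10.25, 9.05 and 8.58 FPKM in S_1 (log2 fold change -1.41, SE 0.19, adjusted p = 0.0488). Jasmonate genes had 6 upregulated and 1 downregulated of 42, with the upregulated ones numbering 3 without S_1 replicate 1 and 10 without S_1 replicate 3. Lipoxygenase 6 (LOC104897618), which oxidises linolenic acid at the start of jasmonate synthesis, had 2.23, 4.05 and 3.08 FPKM in CK_1 and 17.2, 18.4 and 12.3 FPKM in S_1 (log2 fold change 2.05, SE 0.25, adjusted p = 0.0443).

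Among transcription factors, 12.5% of the ERF and DREB list, 15.4% of the NAC list and 1.75% of the bHLH list were upregulated (background 5.12%). The downregulated shares were 3.57%, 3.85% and 7.02% in the same order (background 3.18%). ERF and DREB factors had 7 upregulated and 2 downregulated of 56, the latter numbering 4 without CK_1 replicate 3 and 5 without CK_1 replicate 2. Of the 56, 14 held both a listed 0 and a value of at least 20 FPKM among the 6 libraries. Ethylene-responsive factor 2 (LOC104892796), ethylene-responsive factor 3 (LOC104891730) and ERF054 (LOC104903353), all counted as upregulated, were such genes. ERF114 (LOC104884113) had 1.38, 0.901 and 1.94 FPKM in CK_1 and 10.1, 18.8 and 14.03 FPKM in S_1 (log2 fold change 2.65, SE 0.30, adjusted p = 0.0383). ERF073 (LOC104898899), of the group that responds to low oxygen in Arabidopsis, had 155, 40.7 and 133 FPKM in CK_1 and 322, 290.3 and 522 FPKM in S_1 (log2 fold change 1.94). NAC factors had 4 upregulated and 1 downregulated of 26, among them NAC72 (LOC104891602), a dehydration-responsive factor in Arabidopsis, with 87.5, 55.02 and 153 FPKM in CK_1 and 237, 229.8 and 269.9 FPKM in S_1 (log2 fold change 1.43, SE 0.39, adjusted p = 0.172). S_1 replicate 3 was the highest library in all 4, and 2 were upregulated without it. bHLH factors had 1 upregulated and 4 downregulated of 57, the former numbering 4 without CK_1 replicate 2 and the latter 2 without S_1 replicate 1 or S_1 replicate 3. bHLH101 (LOC104889603), a regulator of iron uptake in Arabidopsis, had 2.25, 4.91 and 3.74 FPKM in CK_1 and 0.398, 0.4904 and 0.799 FPKM in S_1 (log2 fold change -1.53, SE 0.30, adjusted p = 0.0976), and its neighbour LOC104889601 had a log2 fold change of -1.12, with its call lost without CK_1 replicate 2 (log2 fold change -0.92), CK_1 replicate 3 (-1.09), S_1 replicate 1 (-1.01) or S_1 replicate 2 (-0.96). TGA2.1 (LOC104889231), a bZIP factor of defence genes, had 46.1, 41.9 and 55.3 FPKM in CK_1 and 9.82, 12.3 and 11.8 FPKM in S_1 (log2 fold change -1.98, SE 0.17, adjusted p = 0.0219). The clock gene LHY (LOC104901408) had 48.2, 43.7 and 29.3 FPKM in CK_1 and 25.1, 9.5003 and 17.6 FPKM in S_1 (-1.24), and its call was lost without CK_1 replicate 1 (log2 fold change -1.1), CK_1 replicate 2 (-1.17) or S_1 replicate 2 (-0.88).

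Genes of ion transport were called at about the background share. Of 53 genes for sodium, potassium and chloride transport, 3 were upregulated and 3 downregulated (5.66% each, median log2 fold change -0.07), the latter numbering 1 without S_1 replicate 1, and none of the 6 by limma at an adjusted p under 0.05. The vacuolar sodium/hydrogen exchanger NHX1 (LOC104889031), which loads sodium into the vacuole, had 7.35, 5.604 and 6.81 FPKM in CK_1 and 15.9, 12.9 and 15.8 FPKM in S_1 (log2 fold change 1.06, SE 0.17, adjusted p = 0.0684), and its call was lost without CK_1 replicate 2 (log2 fold change 0.97). NHX1-like (LOC104891055) had separate groups but stayed under the criterion (log2 fold change 0.96). The plasma membrane exchanger gene annotated as sodium/hydrogen exchanger 8 (LOC104895331), the family of the sodium exporter SOS1, had 21.6, 18.1 and 12.7 FPKM in CK_1 and 16.1, 14.2 and 18.4 FPKM in S_1, with overlapping groups (log2 fold change -0.07, SE 0.23). The HKT8-like cation transporter (LOC104903830), of the family that draws sodium from the xylem, had 3.596, 2.01 and 4.495 FPKM in CK_1 and 5.94, 4.92 and 3.79 FPKM in S_1, again with overlapping groups (0.46). Calcineurin B-like protein 4 (CBL4, LOC104883533), the calcium sensor named SOS3 in Arabidopsis, was upregulated, with 2.41, 3.41 and 3.56 FPKM in CK_1 and 18.2, 13.9 and 7.67 FPKM in S_1 (log2 fold change 1.72, SE 0.33, adjusted p = 0.0943).

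Outward potassium channels were called in opposite directions. SKOR (LOC104906269), which releases potassium into the xylem, had 20.995, 26.7 and 16.3 FPKM in CK_1 and 5.196, 7.23 and 14.4 FPKM in S_1 (log2 fold change -1.25), and its call was lost without CK_1 replicate 2 (log2 fold change -1.08), S_1 replicate 1 (-0.96) or S_1 replicate 2 (-1.16). The SKOR-like gene (LOC104887294) had 2.69, 3.396 and 2.56 FPKM in CK_1 and 10.01, 6.804 and 14.9 FPKM in S_1 (log2 fold change 1.52, SE 0.30, adjusted p = 0.0978). Their levels crossed: SKOR was the more abundant of the pair in all 3 control libraries, whereas the SKOR-like gene was the more abundant in S_1 replicate 1 and replicate 3. The uptake channel AKT1 (LOC104887697) had overlapping groups (0.11), and the AKT1-like gene LOC104887696 had 6.46, 8.07 and 9.87 FPKM in CK_1 and 4.28, 3.95 and 3.34 FPKM in S_1 and did not meet the criteria (-0.90). Of the other carriers, potassium transporter 4 (LOC104897100) was downregulated, with 85.5, 92.8 and 103 FPKM in CK_1 and 48.7, 35.3 and 32.9 FPKM in S_1 (log2 fold change -1.26, SE 0.20, adjusted p = 0.0643).

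Of 19 aquaporins, 0 were upregulated and 1 downregulated, the latter numbering 3 without CK_1 replicate 3. The downregulated gene was a probable tonoplast (TIP-type) aquaporin (LOC104892761), a water channel of the vacuole membrane, with 1157, 2742 and 1122 FPKM in CK_1 and 428, 338 and 503 FPKM in S_1 (log2 fold change -1.87, SE 0.55, adjusted p = 0.198), and its call was lost without S_1 replicate 2 (log2 fold change -1.72). The V-type proton ATPase subunit H (LOC104890174), of the pump that energises the vacuole, had 17.9, 20.5 and 18.28 FPKM in CK_1 and 35.3, 39.03 and 44.3 FPKM in S_1 (log2 fold change 1.02, SE 0.14, adjusted p = 0.0535), and its call was lost without CK_1 replicate 1 (log2 fold change 0.99) or S_1 replicate 3 (0.94). The plasma membrane ATPase 4 gene (LOC104902389), a proton pump, had 85.8, 164 and 55.2 FPKM in CK_1 and 173, 232 and 182 FPKM in S_1 (1.07), and its call was lost without CK_1 replicate 1 (log2 fold change 1.02), CK_1 replicate 3 (0.70), S_1 replicate 1 (1.15), S_1 replicate 2 (0.94) or S_1 replicate 3 (1.11). These were the 2 upregulated of 22 proton pump genes, of which the number upregulated was 0 without CK_1 replicate 1 or S_1 replicate 3.

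Genes for sulfate uptake and reduction and for phosphate sensing were among those downregulated. The salt solution of S_1 held sulfate, whereas the control had only that of the nutrient solution. Sulfate was added together with sodium and chloride, so its part cannot be told apart from theirs and was not tested. In the sulfur list, 4 of 29 genes were upregulated, 2 without S_1 replicate 3, and 3 downregulated (median log2 fold change -0.09). The root uptake carrier SULTR1.2 (LOC104901583) had 28.2, 84.7 and 24.9 FPKM in CK_1 and 13.5, 8.03 and 15.5 FPKM in S_1 (-1.64), and its call was lost without S_1 replicate 2 (log2 fold change -1.38). Without CK_1 replicate 2 its log2 fold change was -1.09. 5'-adenylylsulfate reductase 1 (LOC104900978), which controls sulfate reduction, had 264, 166 and 309 FPKM in CK_1 and 137, 61.1 and 57.99 FPKM in S_1 (log2 fold change -1.59, SE 0.43, adjusted p = 0.167). SULFUR DEFICIENCY-INDUCED 1 (LOC104899440), a marker of sulfur shortage in Arabidopsis, had 10.9, 9.53 and 21.1 FPKM in CK_1 and 7.39, 1.76 and 2.44 FPKM in S_1 (-1.7), and its call was lost without CK_1 replicate 3 (log2 fold change -1.38) or S_1 replicate 3 (-1.54). A sulfate transporter 3.5 gene (LOC104902172), of a clade linked to transport from root to shoot, was upregulated, with 7.15, 5.58 and 17.5 FPKM in CK_1 and 36.7, 56.1 and 20.1 FPKM in S_1 (log2 fold change 1.84, SE 0.52, adjusted p = 0.185). Of 41 phosphate genes, 2 were upregulated and 6 downregulated (4.88% and 14.6%), the former numbering 4 without CK_1 replicate 3 and 5 without CK_1 replicate 2. SPX domain-containing protein 1 (LOC104908637), a phosphate sensor, had 41.2, 62.9 and 46.7 FPKM in CK_1 and 31, 13.8 and 16.5 FPKM in S_1 (log2 fold change -1.32, SE 0.34, adjusted p = 0.152), and a vacuolar SPX membrane protein gene (LOC104905491) had 19.7, 28.6 and 14.1 FPKM in CK_1 and 5.82, 1.69 and 3.698 FPKM in S_1 (log2 fold change -2.25, SE 0.42, adjusted p = 0.08703).

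Arogenate dehydrogenase 2 was among the most abundant of the genes with large decreases. The enzyme makes tyrosine, from which beets also make their red and yellow betalains. LOC104901924 had 211, 112 and 182 FPKM in CK_1 and 7.73, 12.6 and 4.73 FPKM in S_1 (log2 fold change -4.22, SE 0.39, adjusted p = 0.0255), a control mean 20.2 times the salt mean. Its neighbour on chromosome 8 of EL10.2, LOC104901927, had 10.4, 14.6 and 18.4 FPKM in CK_1 and was listed at 0, 0.00549 and 0 in S_1 (adjusted p = 0.0147). The entry enzyme of the shikimate pathway, DAHP synthase 2 (LOC104904053), was upregulated instead, with 20.9, 24.7 and 18.33 FPKM in CK_1 and 40.5, 81.4 and 52.1 FPKM in S_1 (log2 fold change 1.36, SE 0.28, adjusted p = 0.107). In the list of shikimate, chorismate and arogenate enzymes, added after values had been seen, 3 of 20 were upregulated and 3 downregulated. Chorismate mutase 2 (LOC104884551) had 162, 72.5 and 162 FPKM in CK_1 and 60.2, 65.4 and 58.3 FPKM in S_1, and its call of downregulation (log2 fold change -1.01) was lost without CK_1 replicate 1 (log2 fold change -0.81), CK_1 replicate 3 (-0.82), S_1 replicate 1 (-0.99), S_1 replicate 2 (-1.05) or S_1 replicate 3 (-0.97), and under median ratio scaling.

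Glutamate receptor-like (GLR) channels, which admit calcium at the cell surface, were called only downward, with 4 of 17 downregulated and 0 upregulated (23.5%, median log2 fold change -0.62), and 4 or 5 with any 1 library left out. GLR 2.6-like (LOC104888500) had 21.997, 19.4 and 13.8 FPKM in CK_1 and 1.46, 3.55 and 1.68 FPKM in S_1 (log2 fold change -2.62, SE 0.31, adjusted p = 0.0439). GLR 2.6 (LOC104897463) had 52.95, 30.3 and 24.8 FPKM in CK_1 and 6.56, 7.92 and 5.56 FPKM in S_1 (log2 fold change -2.21, SE 0.31, adjusted p = 0.0508), and a neighbour of it was among the 4. The row that joins LOC104890505 and LOC109135315 had 12.6, 13.2 and 17.4 FPKM in CK_1 and 0.655, 2.48 and 2.07 FPKM in S_1 (log2 fold change -2.55, SE 0.34, adjusted p = 0.0474). This list too was added after values had been seen. Calcium sensors and calcium-regulated kinases had 4 upregulated and 7 downregulated of 111, the latter numbering 16 without CK_1 replicate 2. Among them was the calcium-binding protein CML49 (LOC104889400), with 25.2, 52.5 and 88.4 FPKM in CK_1 and 4.74, 4.77 and 7.39 FPKM in S_1 (log2 fold change -2.94, SE 0.47, adjusted p = 0.0671).

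The decreases included single enzymes of amino acid and organic acid use, which were chosen one by one and together form no list. The citrate cycle list had 3 of 38 genes upregulated and 0 downregulated (7.89%, median log2 fold change 0.34), the upregulated ones numbering 5 without CK_1 replicate 2. Phosphoenolpyruvate carboxykinase (PEPCK, LOC104897815), the entry to sugar synthesis from organic acids, had 405, 314 and 543 FPKM in CK_1 and 161, 128 and 138 FPKM in S_1 (log2 fold change -1.53, SE 0.29, adjusted p = 0.0902). Serine-glyoxylate aminotransferase (LOC104890063), an enzyme of photorespiration, had 213, 283 and 159 FPKM in CK_1 and 73.1, 35.4 and 45.5 FPKM in S_1 (log2 fold change -2.09, SE 0.35, adjusted p = 0.0719). Alanine-glyoxylate aminotransferase 2 (LOC104890411) had 54.6, 56.98 and 89.4 FPKM in CK_1 and 16.5, 23.2 and 24.6 FPKM in S_1 (log2 fold change -1.58, SE 0.26, adjusted p = 0.0697). The breakdown of branched-chain amino acids, a list added after values had been seen, had 2 of 21 genes upregulated and 2 downregulated. The upregulated genes had a median log2 fold change of 1.67. An adjusted p under 0.05 was found for 1 of the upregulated and 0 of the downregulated genes. The downregulated genes were the beta chain of methylcrotonoyl-CoA carboxylase (LOC104905097), which breaks down leucine, with 74.5, 116 and 104 FPKM in CK_1 and 44.96, 25.9 and 48.3 FPKM in S_1 (log2 fold change -1.31), and methylmalonate-semialdehyde dehydrogenase (LOC104904769), which breaks down valine, with 250.5, 309 and 272 FPKM in CK_1 and 142, 91.2 and 144 FPKM in S_1 (-1.16). The call of the latter was lost without S_1 replicate 2 (log2 fold change -0.94).

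Further decreases among the genes of highest fold change had varied functions. The ribosome-inactivating protein lychnin (LOC104903132) had 99.3, 92.4 and 65.5 FPKM in CK_1 and 8.79, 8.52 and 6.79 FPKM in S_1 (log2 fold change -3.25, SE 0.21, adjusted p = 0.0114). The universal stress protein PHOS34 (LOC104891270) had 335, 389 and 292 FPKM in CK_1 and 52.1, 56.9 and 61.5 FPKM in S_1 (log2 fold change -2.55, SE 0.20, adjusted p = 0.0165). A probable histone H2A variant gene (LOC104904618) had 20.8, 38.1 and 18.7 FPKM in CK_1 and 0.436, 0.347 and 0.362 FPKM in S_1 (log2 fold change -4.21, SE 0.30, adjusted p = 0.0147). ABCB11 (LOC104883699), a transporter of a family that moves auxin, had 34.7, 47.3 and 32.4 FPKM in CK_1 and 8.28, 6.18 and 7.68 FPKM in S_1 (log2 fold change -2.21, SE 0.20, adjusted p = 0.0253). In all 4 genes the lowest control library was over 3 times the highest salt library. Decreases of the same order were found in HIPP45 (LOC104900482), a metal-binding protein, with 12.3, 29.7 and 15.3 FPKM in CK_1 and 1.14, 0.301 and 0.862 FPKM in S_1 (-3.45), and a WAT1-related transporter (LOC104890668) with 11.6, 6.93 and 10.6 FPKM in CK_1 and 0.286, 0.0239 and 0.0313 FPKM in S_1 (-3.25). Seipin-2 (LOC104888550), which shapes lipid droplets, had 10.8, 9.87 and 6.17 FPKM in CK_1 and 0.315, 0.7704 and 0.599 FPKM in S_1 (-2.65), and trichome birefringence-like 19 (LOC104905427), of a family that acetylates wall polymers, had 7.44, 12.4 and 6.75 FPKM in CK_1 and 0.353, 0.417 and 0.878 FPKM in S_1 (-2.64). The uncharacterized genes LOC104886703 and LOC104889939 had log2 fold changes of -3.64 and -3.63, and the call of the latter was lost without S_1 replicate 3 (log2 fold change -3.17).

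Among the most abundant downregulated genes, HMGB3 (LOC104905928), a chromatin protein, had 1024, 1064 and 1066 FPKM in CK_1 and 455, 375 and 428 FPKM in S_1 (log2 fold change -1.33), and its call was lost without S_1 replicate 2 (log2 fold change -1.25). WLIM2b (LOC104903783), which bundles actin, had 405, 477 and 426 FPKM in CK_1 and 214, 158 and 184 FPKM in S_1 (-1.24). A Mal d 1 allergen gene (LOC104888645), of the PR-10 proteins, had 569, 1525 and 1256 FPKM in CK_1 and 265, 392 and 377 FPKM in S_1 (-1.6), with its call lost without CK_1 replicate 3 (log2 fold change -1.45), S_1 replicate 1 (-1.42) or S_1 replicate 3 (-1.67). The gamma vacuolar processing enzyme, a protease read from the row of LOC104886428 and LOC104886441, had a log2 fold change of -1.01 and lost its call without CK_1 replicate 1 (log2 fold change -0.99), CK_1 replicate 2 (-0.85), S_1 replicate 1 (-1.11) or S_1 replicate 2 (-0.71), and under median ratio scaling. The ubiquitin-conjugating enzyme UBC28 (LOC104888303) had -1.05 and lost it without CK_1 replicate 1 (log2 fold change -0.98), CK_1 replicate 3 (-0.85), S_1 replicate 1 (-1.17), S_1 replicate 2 (-0.92) or S_1 replicate 3 (-1.06), and under median ratio scaling. A gene for an SDE2 homolog (LOC104884550) had 747, 301 and 719 FPKM in CK_1 and 293, 88.2 and 111 FPKM in S_1 (-1.93), with its call lost without CK_1 replicate 1 (log2 fold change -1.71), CK_1 replicate 3 (-1.73), S_1 replicate 2 (-1.59) or S_1 replicate 3 (-1.75). An F-box/kelch-repeat gene (LOC104897584) had 201, 661 and 305 FPKM in CK_1 and 113, 62.6 and 122.9 FPKM in S_1 (-1.84). The glutathione transferase GST 23 (LOC104884575) had 165, 223 and 150.03 FPKM in CK_1 and 50.8, 49.7 and 42.1 FPKM in S_1 (-1.88), and the amino acid permease AAP8 (LOC104885774) had 28.3, 22.2 and 12.3 FPKM in CK_1 and 5.72, 4.06 and 3.57 FPKM in S_1 (-1.95).

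Large increases outside the lists included CEN-like protein 1 (LOC104906428), a relative of the flowering repressor TERMINAL FLOWER, with 1.498, 0.828 and 0.882 FPKM in CK_1 and 27.9, 71.5 and 36.997 FPKM in S_1 (log2 fold change 4.39, SE 0.37, adjusted p = 0.0227). A probable aldo-keto reductase gene (LOC109133539), of enzymes that remove reactive aldehydes, had 2.98, 5.26 and 6.48 FPKM in CK_1 and 75.5, 81.4 and 60.1 FPKM in S_1 (log2 fold change 3.67, SE 0.27, adjusted p = 0.0155). Annexin-like protein RJ4 (LOC104887503), which binds calcium and membranes, had 26.8, 40.7 and 24.2 FPKM in CK_1 and 196, 235 and 398 FPKM in S_1 (log2 fold change 3.1, SE 0.34, adjusted p = 0.0383). Type 2 metallothionein (LOC104884484), a metal-binding protein, was among the most abundant upregulated genes, with 517, 593 and 553 FPKM in CK_1 and 1941, 1264 and 1685 FPKM in S_1 (log2 fold change 1.53), and its call was lost without CK_1 replicate 1 (log2 fold change 1.49) or CK_1 replicate 3 (1.53). On the defence side, the list of pathogenesis-related and thaumatin-like proteins had 10 of 78 genes upregulated and 4 downregulated (12.8% and 5.13%). The upregulated ones numbered 5 without CK_1 replicate 1. The PR-10 gene Pru ar 1 (LOC104901391) had 819, 493 and 974 FPKM in CK_1 and 2099, 2799 and 4003 FPKM in S_1 (1.97). Its call was lost without CK_1 replicate 1 (log2 fold change 2.05), CK_1 replicate 2 (1.68) or CK_1 replicate 3 (2.17). The same held without S_1 replicate 2 (1.98) or S_1 replicate 3 (1.72), and under median ratio scaling. The Mal d 1 gene given above, also of the PR-10 proteins, was downregulated. Thaumatin-like protein 1 (LOC104892311) had 381, 274 and 928 FPKM in CK_1 and 2008, 4944 and 1594 FPKM in S_1 (2.45), with its call lost without CK_1 replicate 1 (log2 fold change 2.31) or CK_1 replicate 2 (2.08). Of the called genes, 258 have only an uncharacterized or hypothetical protein as their description, out of 3820 such genes, against 1212 called of all 14597. The most abundant of them on the upregulated side, LOC104894158, had 227, 364 and 222 FPKM in CK_1 and 1156, 1340.3 and 889 FPKM in S_1 (log2 fold change 2.07, SE 0.40, adjusted p = 0.0932), and LOC104907245 had 1.02, 3.02 and 2.65 FPKM in CK_1 and 39.9, 22.6 and 74.5 FPKM in S_1 (log2 fold change 3.75, SE 0.49, adjusted p = 0.0473).

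**Figure D4:**
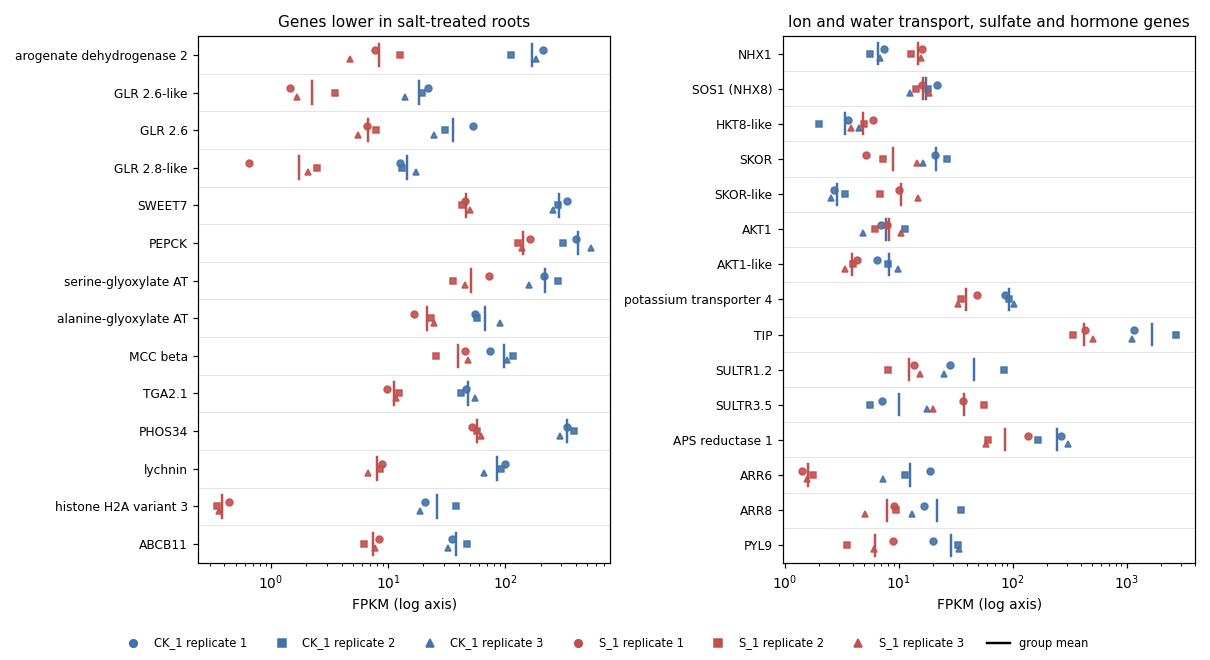
FPKM (log axis) of genes that were lower in salt-treated roots (left) and of ion, water, sulfate and hormone genes (right) in each CK_1 library (blue) and S_1 library (red), with vertical lines at the group means. In the left panel all red points lie left of the blue points, with 4.73 to 12.6 FPKM against 112 to 211 for arogenate dehydrogenase 2, whereas SOS1 (NHX8), HKT8-like and AKT1 in the right panel have mixed points.

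The day 1 changes were set beside those of S_7 against CK_7, and the difference of the 2 fold changes was tested per gene in a fit of all 12 libraries. An adjusted p under 0.05 was found for this difference in 305 of the 14597 genes (2.09%, against 1.77% over all genes tested). The fold change was lower on day 7 in 1.08% of the 14597 genes and higher in 1.01%, against 0.909% and 0.861% over all genes tested. The number of genes was 187 without CK_1 replicate 1, and 184, 164 and 151 without replicates 1, 2 and 3 of CK_7 in turn. It was 166, 199 and 173 without replicates 1, 2 and 3 of S_7 in turn. Among the 748 genes upregulated on day 1 the effect was lower on day 7 in 110 and higher in 0, and among the 464 downregulated genes it was higher on day 7 in 65 and lower in 0. These directions follow in part from the choice of genes by their day 1 values, which both contrasts share. In the barrier lists, 5 of the 13 upregulated suberin genes, 6 of the 16 upregulated lignin genes and 5 of the 9 upregulated GDSL genes had a lower effect on day 7. The log2 fold change on day 7 was -1.57 for CYP86B1, -0.83 for GPAT8 and -0.85 for laccase-12, and the differences between the days were -4.73, -3.54 and -5.18 (adjusted p = 0.0107, 0.00484 and 0.004395). Over the 13 upregulated suberin genes the median was 2.50 on day 1 and -0.34 on day 7.

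The controls themselves differed between the days. CYP86B1 had 0.548, 0.679 and 0.558 FPKM in CK_1 but 8.85, 8.28 and 17.6 FPKM in CK_7, a level within or near that of S_1, and 2.92, 6.38 and 1.24 FPKM in S_7. GPAT8 had 28.1, 27.2 and 34.99 FPKM in CK_7 and 13.2, 22.3 and 14.9 FPKM in S_7, and laccase-12 had 46.9, 55.3 and 78.5 FPKM in CK_7 and 27.5, 46.2 and 26.4 FPKM in S_7. In each of these 3 genes all CK_7 libraries lay above all CK_1 libraries. The same held for 96 of the 110 upregulated genes with a lower effect on day 7, against 3716 of all 14597 genes, and in 56 of the 65 downregulated genes with a higher effect on day 7 all CK_7 libraries lay below CK_1, against 1982 of all. In the 110 genes the median log2 level was 1.81 higher in CK_7 than in CK_1, and S_7 minus S_1 was -0.83. In the 65 genes the median log2 level was lower in CK_7 than in CK_1, with a difference of -1.35, and higher by 0.75 in S_7 than in S_1. Over the 13 upregulated suberin genes the median log2 level was 2.07 higher in CK_7 than in CK_1, and S_7 minus S_1 was -0.75. In the medians of the 110 genes and of the suberin genes, both a higher control level and a lower salt level thus entered the lower fold change. A lower salt level was not found in every gene. The fatty acyl-CoA reductase gene LOC104900337 had 10.5, 8.64 and 11.9 FPKM in S_1 but 23.97, 24.03 and 19.5 FPKM in S_7. Since CK_1 also chose the genes, these values are descriptions.

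The 11 upregulated LEA genes had a median of 2.20 on day 1 and 1.08 on day 7, and 1 of them had a difference at an adjusted p under 0.05. Choline monooxygenase had 2.32 on day 1 and 2.91 on day 7 (difference 0.59, adjusted p = 0.512). The 9 upregulated methyl cycle genes had medians of 1.91 and 0.75, and 0 of them passed this test. In 2 of the 11 LEA genes and 7 of the 9 methyl cycle genes all CK_7 libraries lay above CK_1, and in 3 and 0 all lay below. The median log2 level of S_7 minus S_1 was -0.89 in the LEA genes and 0.48 in the methyl cycle genes. LEA46 was lower on day 7 in both groups, at 0.906, 0.358 and 0.739 FPKM in CK_7 and 46.5, 35.3 and 12.2 FPKM in S_7. So was choline monooxygenase, at 43.1, 47.3 and 24.2 FPKM in CK_7 and 242, 267 and 347 FPKM in S_7. Among downregulated genes, SWEET7 had -2.62 and -3.91 (adjusted p of the difference = 0.0824), whereas PHOS34 had -2.55 and 0.07 (0.00322). The TIP-type aquaporin went from -1.87 to 1.49 (0.03704) and PEPCK from -1.53 to 1.1 (0.0115). HKT8-like, which had overlapping groups on day 1, had a log2 fold change of -3.31 on day 7 (difference -3.76, adjusted p = 0.00677).

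**Figure D5:**
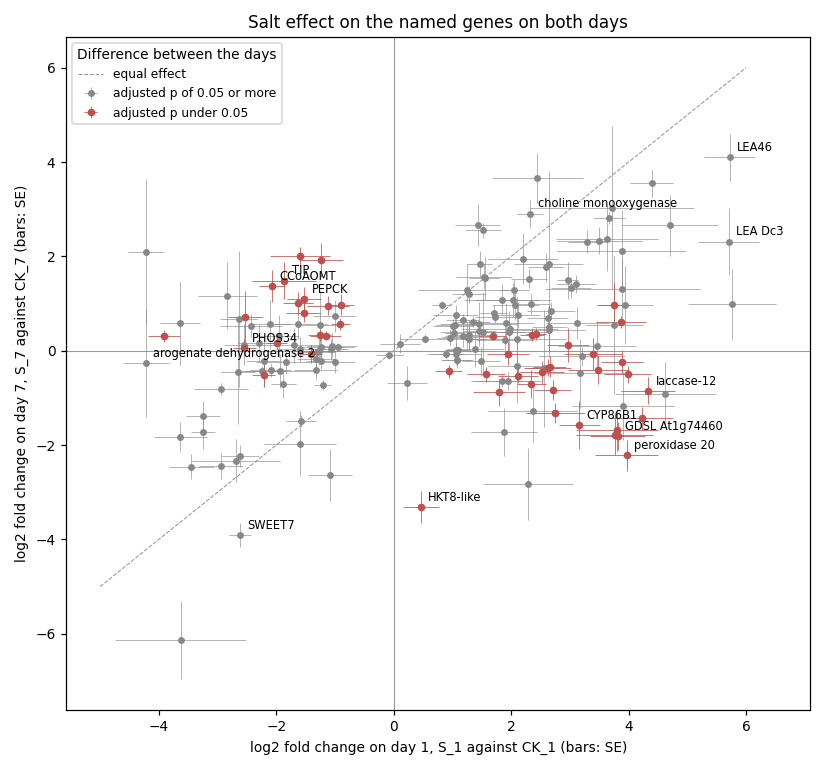
Log2 fold change of S_1 against CK_1 (horizontal) and of S_7 against CK_7 (vertical) for the 180 genes described with a fold change, with bars of 1 SE, a dashed line of equal effect, and red points where the difference between the days had an adjusted p under 0.05 (47 genes). Many of the upregulated suberin, lignin and peroxidase genes lie at the right below the line, as peroxidase 20 at 3.97 on day 1 and -2.21 on day 7. Members of these families that were lower on day 1 lie at the left, as CCoAOMT at -2.07 and 1.38. LEA46 lies at 5.72 and 4.10. Over all 14597 genes the difference had an adjusted p under 0.05 in 2.09%, and most genes shown were chosen by their day 1 values.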

How the data were processed

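RNA of sugar beet roots was sequenced by the authors, with 3 biological replicates per group, and the deposited table holds FPKM values of 28320 genes in 12 libraries. Per the labels, the submitters' processing notes name HISAT2 2.0, StringTie 1.3.0 and Bowtie 0.12.2, and the genome build they name, mm8, is a mouse build. The study's methods credit FPKM to StringTie and the choice of changed genes to Ballgown. The version of the sugar beet assembly is not given in the sources used here. Since the deposited FPKM values carry no counts, depth is unknown, and no coordinates are printed. Of the rows, 4917 have no locus name.

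Values were taken as log2(FPKM + 1), a scale that understates changes of low genes, and S_1 was compared with CK_1 by limma 3.58.1 in R 4.3.3 with an intensity trend, over genes above 0 in at least 1 of the 6 libraries. All adjusted p values are Benjamini-Hochberg values from this fit, and those between the days come from a limma fit of all 12 libraries. With 3 against 3 libraries an exact permutation test of 1 gene could not go below p = 0.1, so none is given. The thresholds were P under 0.05 and a log2 fold change past 1, those of the study. The fit of S_1 against CK_1 was tested on simulated data, and the fit of all 12 libraries was not. Tables and plots were made with Python 3.11.15.

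The genes and lists were chosen with earlier results of these data known. Lists were matched on gene descriptions, and some patterns were corrected after descriptions had been read. Genes were named by rule: the 15 largest increases and decreases with an adjusted p under 0.05 and separate groups, the 10 most abundant called genes in each direction, up to 6 called genes per list, and the defining steps of each pathway, called or not. Some of these are left out of the text, and genes of the 6 later lists, with a few others, were chosen after their values had been seen. Genes listed at 0 beside 20 FPKM or more were kept apart when genes were named but stayed in all counts. Of those counted, 22 were upregulated and 13 downregulated. With such genes removed, 732 genes were upregulated and 451 downregulated. Alternatives were another pseudocount, filters, scalings, fits, a replicate block and each library left out. Neighbours and chromosomes come from RefSeq's table for assembly EL10.2, which placed 904 of the called genes, within windows of 10 genes. Sequences were not analysed here.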

Additional observations from a re-analysis of the deposited data

Results flagged for a closer look

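For 47 of the 180 genes described with a fold change in the report, the salt effect on day 7 differed from that on day 1. The test was the limma fit of all 12 libraries, with an adjusted p under 0.05 over all genes tested. Over all 14597 genes the number was 305 (2.09%), and the share was 1.77% over all genes tested. Of the 180 genes, 164 were called on day 1, and the day 1 change enters the difference. The share among the 180 thus follows in part from their choice. Each value given here is the day 7 log2 fold change minus the day 1 log2 fold change. A negative value means a lower fold change of S against CK on day 7. The controls differed between the days in most of these genes. In 27 of the 29 with a negative value all CK_7 libraries lay above all CK_1 libraries. In 15 of the 18 with a positive value all lay below. The median log2 level of CK_7 minus CK_1 was 2.64 and -1.50 in the 2 sets, and that of S_7 minus S_1 was -0.89 and 0.71. Of all 14597 genes, 3716 had all CK_7 libraries above CK_1 and 1982 had all below. The CK_1 values enter both the choice of the genes and the difference, so these values are descriptions. With 3 libraries in a group, single outlying libraries were not tested for.

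Negative differences were found among suberin, wax and cutin genes, most of which had been named as upregulated on day 1. How many genes of a kind appear here follows from which were named. The differences were -4.73 for CYP86B1, -3.54 for GPAT8, -2.85 for KCS10 and -2.65 for the hydroxyacyl-CoA dehydratase. LACS4 (LOC104884969) had -4.49, whereas the other LACS4 gene (LOC104892156), which had been lower under salt on day 1, had 1.48. The fatty acyl-CoA reductases had -2.99 (LOC104901603) and -2.01 (LOC104900337). The lipid-transfer protein genes had -4.11 (LOC104894518), -3.89 (LOC104904284) and -2.98 (LOC104908115). The GDSL esterase genes had -5.61 for the At1g74460 type, -5.55 for At2g23540, -2.07 for At1g28610 and -5.49 for At5g22810. The MYB39 gene LOC104900532 had -2.98, and HOTHEAD had -4.08. Of these genes, the At1g74460 type had 1.45, 2.25 and 2.05 FPKM in CK_1 and 42.1, 58.9 and 93.8 in CK_7, LACS4 (LOC104884969) had 2.22, 2.85 and 2.54 and 30.8, 29.3 and 37.8, and HOTHEAD had 0.214, 0.917 and 0.403 and 12.4, 12.4 and 14.9.

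Among lignin genes and peroxidases the difference was -2.0 for CCR and -5.18 for laccase-12. It was -5.66 for peroxidase 11, -6.18 for peroxidase 20 and -2.77 for the cationic peroxidase LOC104900272. The genes that were downregulated on day 1 had positive values, 3.45 for the caffeoyl-CoA O-methyltransferase and 3.25 for peroxidase P7.

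In sugar, wall and protein folding genes the values were -1.37 for galactinol synthase 1, -3.05 for the cytosolic glyceraldehyde-3-phosphate dehydrogenase, -1.37 for sucrose-phosphate synthase and -2.67 for SWEET1. They were -3.47 for XTH24, -3.26 for glucan endo-1,3-beta-glucosidase 13 and -2.07 for the endoplasmin gene.

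Ion and water transport genes had -3.76 for the HKT8-like transporter, 1.87 for the AKT1-like channel, 1.59 for potassium transporter 4 and 3.36 for the TIP-type aquaporin. Amino acid and organic acid genes had 4.23 for the arogenate dehydrogenase gene LOC104901927, 2.63 for PEPCK and 1.48 for methylmalonate-semialdehyde dehydrogenase. Signalling and other genes lower on day 1 had 1.35 for CTR1, 2.15 for TGA2.1, 3.16 for LHY, 2.34 for bHLH101 and 2.07 for its neighbour. The values were 2.64 for the ABP19a row, 2.61 for PHOS34, 3.6 for the Mal d 1 allergen gene and 1.7 for ABCB11. What lay behind these differences was not tested.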

How the results depend on the processing

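The counts of 748 upregulated and 464 downregulated genes fell to 91 and 62 when an adjusted p under 0.05 was required, since only the threshold differs. Under the other planned settings they stayed within 1.5 times, at 608 to 1030 upregulated and 367 to 651 downregulated genes, the lowest with an unmoderated linear model and the highest with a pseudocount of 0.1. Leaving out each library in turn gave 650 to 958 and 428 to 548. Of the genes called, 454 were upregulated and 239 downregulated in all 6 of these fits. A median ratio scaling moved the median log2 fold change of the 14597 genes from 0.0083 to 0.015 and the upregulated share of calls from 61.7% to 63.0%. The number of genes whose salt effect differed between the days was 305, and 151 to 361 when 1 library was left out. It was 134 under a replicate block, 420 under median ratio scaling and 408 with no intensity trend, and the cause was not tested.

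Same-numbered CK_1 and S_1 libraries deviated from their group means with correlations of -0.031, -0.079 and 0.024, so the replicate numbers were not taken as pairs. A fit with the replicate block gave 745 upregulated and 457 downregulated genes, and 0 genes had an adjusted p under 0.05 in it by limma. Of the 164 genes named in the report as called, 120 were called in every fit without 1 library and 44 were not called in at least 1. The block lost 8 of the 164 (KCS11, SULTR1.2, thaumatin-like protein 1, UBC28, the vacuolar processing enzyme, ABI5-like 5, XTH24's neighbour and CYP73A100), median ratio scaling 8, the fit of all 12 libraries 4 and a pseudocount of 0.1 none of them, and 0 changed direction. FPKM values carry no read counts, so the depth behind low values is unknown.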

Other observations

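Among the 14597 genes, 327 were listed at 0 FPKM in at least 1 of the 6 libraries and at 20 FPKM or more in another, and 22 of them were upregulated and 13 downregulated. An exact 0 beside such a level can be a failed estimate of the assembly, so these genes are given as listed, with no fold change. Ethylene-responsive factor 3 (LOC104891730), a repressor of that family, was listed at 0 in all 3 controls and had 118, 139.9 and 138 FPKM in S_1. The DELLA protein GAI (LOC104896788), which holds gibberellin responses back, was listed at 0 in the controls and had 33.2, 24.01 and 27.2 FPKM in S_1. The low-temperature-induced 65 kDa protein gene (LOC104888643), an ABA-responsive gene in Arabidopsis, had 0, 0 and 0.0297 FPKM in CK_1 and 13.6, 7.76 and 31.8 FPKM in S_1. ERF054 (LOC104903353) had 2.35, 6.398 and 0 FPKM in CK_1 and 44.3, 30.5 and 53.9 FPKM in S_1. The T-complex protein 1 subunit delta gene (LOC104908262), of a chaperonin, had 0, 4.28 and 0 and 41.9, 50.7 and 38.8 FPKM.

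The opposite pattern was found for the chloroplastic phosphoserine aminotransferase gene (LOC104895208), an enzyme of serine synthesis, with 31.3, 36.1 and 35.6 FPKM in CK_1 and a listed 0 in all 3 libraries of S_1. A 40S ribosomal protein S17 gene (LOC104898272) had 36.2, 28.8 and 32.9 FPKM in CK_1, and the metalloendoproteinase 1-MMP (LOC104892659) had 44.1, 30.2 and 38.3, and both were listed at 0 in S_1. S17 is a part of every ribosome, so a listed 0 in all 3 libraries is not read as absence.

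The table also holds 3151 genes with no annotation whose mean reached 1 FPKM in either group. Of these, 182 were upregulated (5.78%) and 227 downregulated (7.2%), and 37 had an adjusted p under 0.05. The annotated genes had 5.12% and 3.18%. Whether the 2 classes differ in this was not tested.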
